A study of Mus musculus with 4 samples.

Results

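The 10 genes described here are 4 transcription factors of the primitive endoderm (Gata4, Gata6, Sox7 and Sox17), the growth factor receptor Pdgfra, the secreted signal Ihh, and the endocytic adaptor Dab2 with its receptors Cubn, Lrp2 and Amn. They were chosen by symbol among the 78028 rows of the count tables, and each symbol matched 1 row. The libraries come from E14TG2a, a line of mouse embryonic stem cells, grown as 4 separate cultures that were all exposed to the same advanced hepatic-inducing cocktail (A-HIC) and labelled hepatocyte-like cells. The series asked about hepatic identity and maturity, and the labels give no untreated group and no culture time, so the 4 libraries (numbered 1 to 4 as in the labels) form 1 group. Total counts ran from 29518642 to 40154964 per library. Of 10 hepatocyte markers, 2 (Ttr and Hnf4a) reached 1 TPM (a count scaled by gene length and library total) in every library, and Fabp1 and Cyp2e1 had 0 counts throughout. Summed over the 10 markers, the level was 9.95, 55.1, 12.9 and 26.8 TPM in libraries 1 to 4, highest in library 2 and then 4, 3 and 1. Ttr made up 4.08, 30.8, 6.0 and 16.5 TPM of these sums. All 9 markers of the pluripotent epiblast reached 1 TPM in every library. The hepatocyte label therefore goes against most of its markers.

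Primitive endoderm is the first endoderm of the mouse embryo. It arises beside the pluripotent epiblast under FGF signalling, and Gata6 and Gata4 drive its fate, followed by Sox17 and Sox7, while Pdgfra marks it early. Its descendants are the visceral endoderm, an absorptive layer that carries Cubn and Lrp2 on its surface, and the parietal endoderm, which lays down a thick basement membrane. Cubilin (Cubn) has no membrane anchor of its own and reaches the cell surface only with amnionless (Amn). Megalin (Lrp2) is a large receptor of the LDL receptor family, and Dab2 links the tails of these receptors to clathrin. Ihh is the hedgehog ligand made by visceral endoderm. Several of the genes are also used elsewhere: Gata4 and Gata6 in heart, Sox7 and Sox17 in endothelium, Sox17 in definitive endoderm, Pdgfra in mesenchyme, and Cubn, Amn and Lrp2 in the kidney proximal tubule.

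All 10 genes were expressed, which here means 1 TPM or more in every library, a property of 63.4% of the 19919 protein-coding genes measured. In mean TPM they ran from Dab2 at 94.6 ± 30.0 (SD, n = 4), above 89.1% of protein-coding genes, to Ihh at 5.91 ± 2.84, above 47.3%. Between these stood Pdgfra at 70.2 ± 32.0, Gata4 at 68.9 ± 36.9, Gata6 at 41.0 ± 13.5, Sox17 at 19.7 ± 11.3, Lrp2 at 14.5 ± 2.31, Sox7 at 14.2 ± 6.42, Cubn at 13.4 ± 3.48 and Amn at 8.80 ± 2.93. The sequence of levels within this middle range is loose. Of the 9 pairs of neighbours, Pdgfra and Gata4, Sox17 and Lrp2, Lrp2 and Sox7, Sox7 and Cubn, and Amn and Ihh each changed places between libraries, and the steps from Dab2 to Pdgfra, Gata4 to Gata6, Gata6 to Sox17 and Cubn to Amn had the same sign in all 4. With the longest transcript as gene length the step from Gata4 to Gata6 lost that constancy, and those between Pdgfra and Gata4 and between Sox17 and Lrp2 gained it. In bulk RNA, fewer cells of a type and less RNA per cell cannot be told apart, so every level is an average over each culture.

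**Figure D1:**
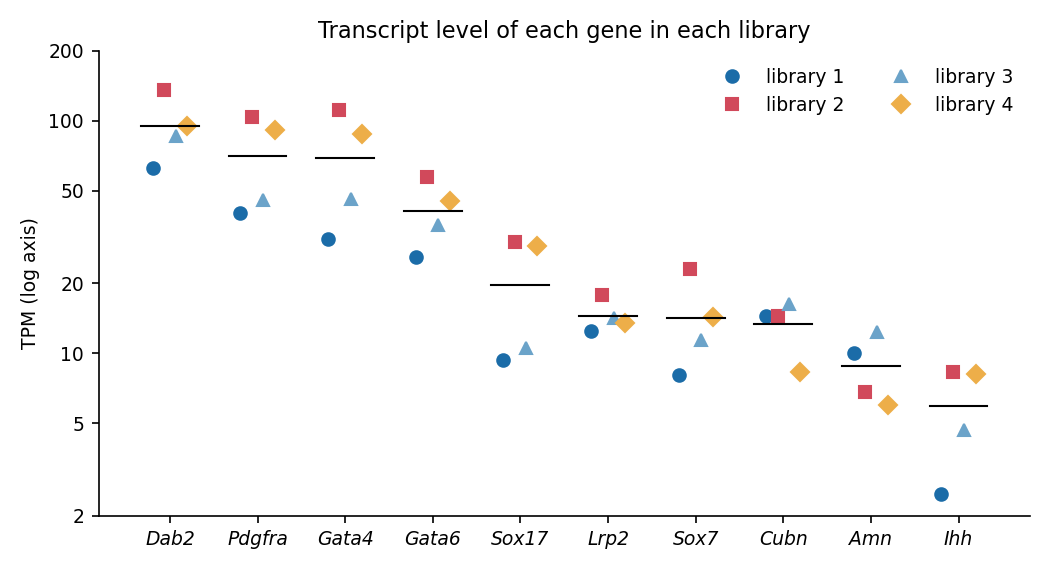
Level of each of the 10 genes in TPM (log axis), 1 point per library and a black bar at the mean of 4. Libraries 2 and 4 lie above libraries 1 and 3 for 7 of the genes, while Cubn and Amn are lowest in library 4.

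The start-site regions of the 3 genes on which the contrast among the endocytic genes turns are shown first: Cubn and Amn, which share one order of the libraries, and Dab2, which follows the transcription factors. Each is the 250 bases before a start site of the RefSeq annotation on GRCm38.p6, 5′ to 3′ on the gene's own strand. Capitals mark a form of the GATA motif, TGATAA. Dab2 has 2 start sites in that table, and the distal one, which holds this motif, is given.
Cubn, chr2:13491877-13492126, - strand: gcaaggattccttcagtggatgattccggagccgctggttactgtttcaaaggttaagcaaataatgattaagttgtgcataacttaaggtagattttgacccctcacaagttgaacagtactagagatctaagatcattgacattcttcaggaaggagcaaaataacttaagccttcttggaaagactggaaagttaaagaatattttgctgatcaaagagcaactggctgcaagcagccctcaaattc
Amn, chr12:111270846-111271095, + strand: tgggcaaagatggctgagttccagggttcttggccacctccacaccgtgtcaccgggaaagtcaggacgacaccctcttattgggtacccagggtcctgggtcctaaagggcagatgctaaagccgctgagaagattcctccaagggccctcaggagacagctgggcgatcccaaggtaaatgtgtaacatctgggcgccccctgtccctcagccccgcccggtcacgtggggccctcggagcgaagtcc
Dab2, distal start, chr15:6299539-6299788, + strand: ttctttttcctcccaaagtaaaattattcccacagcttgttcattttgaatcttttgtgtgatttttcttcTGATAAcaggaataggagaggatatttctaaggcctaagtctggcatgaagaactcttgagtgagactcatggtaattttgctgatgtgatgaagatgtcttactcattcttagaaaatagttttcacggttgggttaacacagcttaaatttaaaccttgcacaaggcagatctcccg
Windows for 6 of the 10 genes were in the table, and 5 motifs were searched on both strands, of which 4 are given here: the GATA form AGATAA, the GATA form TGATAA, the SOX motif AACAAT and the TATA box TATAAA. The distal Dab2 window held TGATAA 179 bases before the start site. Across all 32851 windows of this length, 16.6% held either GATA form, 7.94% held TGATAA, 9.42% held AACAAT and 12.4% held TATAAA. The windows of Cubn, Amn, Lrp2, Pdgfra and Ihh held none of the 5 motifs, although Pdgfra and Ihh had the same order of libraries as Dab2. A link between motifs and levels was not tested. The proximal window of Dab2, not shown, held none of these 4 and 1 match to the motif not given here. No window held 2 matches, so none overlapped. Their base composition differed: G and C made up 39.6% of the Cubn window, 61.2% of the Amn window, and 36.8% and 60.0% of the Dab2 windows. The first bases after the start site were found in a GENCODE M21 transcript for Amn and Dab2 but not for Cubn.

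Among the transcription factors, all 4 were highest in library 2, followed by 4, 3 and 1. Gata4, a zinc finger factor that activates endoderm genes, stood at 31.1, 111, 45.9 and 87.4 TPM in libraries 1 to 4, from 1254, 4409, 1410 and 3555 counts. Gata6, its partner and the earlier of the pair to act, stood at 25.9, 57.4, 35.7 and 45.1 TPM. Libraries 2 and 4 were above libraries 1 and 3 for both genes, and the ratio of highest to lowest library, on CPM (counts scaled by library total) corrected with TMM factors and called scaled CPM, was 3.54 for Gata4 and 2.20 for Gata6.

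Sox17, an HMG box factor of primitive and definitive endoderm, stood at 9.33, 30.1, 10.5 and 29.0 TPM. Libraries 2 and 4 were nearly equal for Sox17, as were 1 and 3, and the highest to lowest ratio was 3.19. Sox7, its relative that is most prominent in parietal endoderm, stood at 8.07, 23.0, 11.4 and 14.3 TPM, highest in library 2 (highest to lowest ratio 2.83). The remaining member of their SoxF family, Sox18, an endothelial factor, had 3 to 8 counts per library. Of the other GATA family genes, Gata2 (6.80 ± 1.81 TPM, SD, n = 4), Gata3 (6.55 ± 0.849) and Gata1 (1.55 ± 0.547) were expressed and Gata5 was not (4 to 10 counts). The GATA cofactor Zfpm1 stood at 41.0 ± 8.93 TPM and Zfpm2 at 2.73 ± 0.914.

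Gata4 exceeded Sox17 by a log2 ratio of 1.83 ± 0.23 (SD, n = 4) of TPM + 0.1, with values of 1.73, 1.88, 2.12 and 1.59 in libraries 1 to 4, while the SD of each gene alone was 0.84 and 0.91 on the log2 scale of scaled CPM. Gata4 exceeded Gata6 by 0.63 ± 0.37, with 0.95 in libraries 2 and 4 and 0.26 and 0.36 in 1 and 3. The sign of this ratio depends on the gene length used: with the longest transcript of each gene in place of all exons together it was -0.32, 0.37, -0.22 and 0.37, with a mean of 0.05. Gata6 exceeded Sox17 by 1.20 ± 0.51, an SD no smaller than that of Gata6 alone (0.49) and below that of Sox17 alone (0.91). Sox17 over Sox7 was 0.21, 0.38, -0.11 and 1.01, so their sequence was not the same in every library. This too depends on gene length: with the longest transcript the ratio was 0.76, 0.94, 0.44 and 1.57, positive in every library. Set against Nanog and Pou5f1, 2 core pluripotency factors, Gata6 and Gata4 were lower in every library: Gata6 over Nanog was -4.65, -2.61, -3.91 and -3.19, and Gata4 over Pou5f1 -4.29, -1.92, -3.78 and -2.51. An exact sign-flip permutation test on 4 libraries cannot give a two-sided p below 0.125, which is what the 17 of 25 pairs with 1 sign throughout reached (adjusted p = 0.184), so no ratio can pass a threshold of 0.05.

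**Figure D2:**
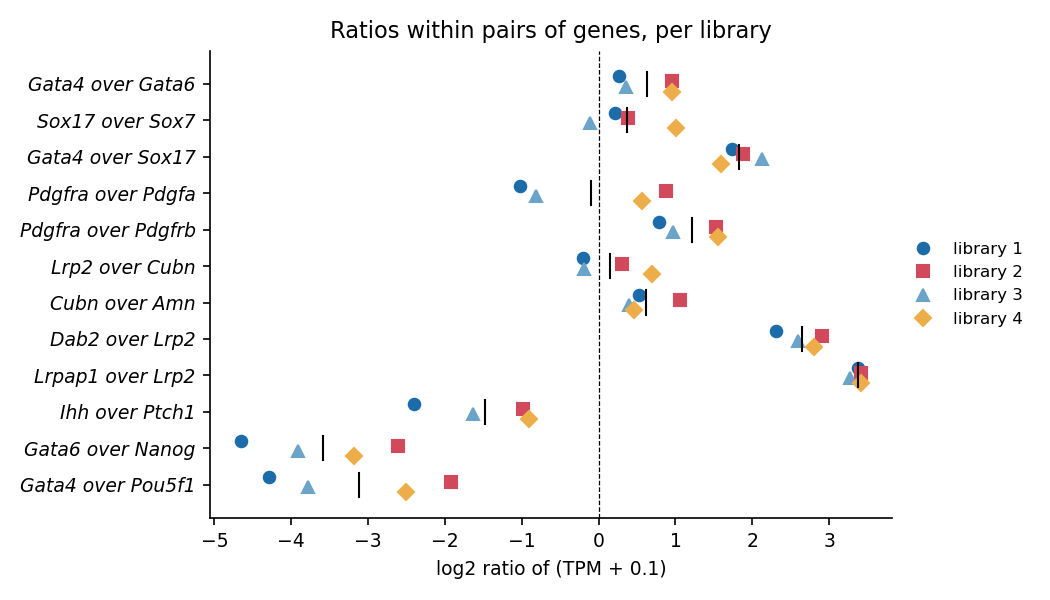
Log2 ratio of TPM + 0.1 for 12 pairs of genes, 1 point per library and a black bar at the mean of 4. Pdgfra over Pdgfa and Lrp2 over Cubn lie on both sides of the dashed line at 0, whereas Lrpap1 over Lrp2 spans 3.27 to 3.41.

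Pdgfra, the receptor for PDGF-AA and an early surface marker of primitive endoderm, stood at 40.1, 104, 45.5 and 91.2 TPM in libraries 1 to 4. As with Sox17, libraries 2 and 4 were close to each other and more than 2-fold above libraries 1 and 3. On scaled CPM these are the only 2 of the 10 genes for which both libraries exceeded both others at least 2-fold, a pattern seen in 0.81% of the 17398 genes tested. Pdgfra passed narrowly, with 241 in library 4 against 119 in library 3, and did not pass on CPM without TMM factors (237 against 122). Gata4 narrowly missed, with 89.9 against 46.7 scaled CPM in the same libraries. The main ligand, Pdgfa, had the opposite order, at 81.4, 56.2, 80.1 and 61.9 TPM. Ligand transcripts therefore exceeded receptor transcripts in libraries 1 and 3 (log2 ratio of receptor to ligand -1.02 and -0.81) and not in 2 and 4 (0.88 and 0.56). Pdgfrb, the related receptor of mesenchymal cells, was lower than Pdgfra in every library by 1.21 ± 0.40 (log2, SD, n = 4). Pdgfb, Pdgfc and Pdgfd had means of 11.1, 16.7 and 2.11 TPM.

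Ihh was the lowest of the 10 genes and among the most variable. It stood at 2.48, 8.33, 4.67 and 8.16 TPM, from 78, 258, 112 and 259 counts, with libraries 2 and 4 above 3 and 3 above 1. Its ratio to Gata4 was nearly constant, at -3.60, -3.72, -3.27 and -3.41 on the log2 scale (a pair chosen after the values were seen). Of the 19 other hedgehog pathway genes, 16 were expressed. Shh had 0, 2, 0 and 0 counts and Dhh 0.675 ± 0.21 TPM (SD, n = 4), so Ihh was the most abundant of the 3 hedgehog ligands. The receptor components Ptch1 (15.1 ± 1.34 TPM) and Smo (39.9 ± 5.44 TPM) varied little, with highest to lowest ratios of 1.22 and 1.34. Ihh was below Ptch1 by 2.40, 0.99, 1.63 and 0.91 log2 units in libraries 1 to 4. The pathway outputs did not share 1 order: Gli1, a direct target, was at 11.9, 11.7, 15.7 and 15.8 TPM, whereas Hhip, a target and inhibitor, was at 1.07, 4.50, 0.853 and 3.14 TPM and Foxf1 at 2.44, 4.97, 2.89 and 5.17 TPM. Libraries 2 and 4 were above 1 and 3 for 12 of the 18 tested genes of the pathway, beside 29.2% of all genes tested.

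The 4 endocytic genes separated. Dab2, the adaptor, was the most abundant of the 10 genes and had the order of the transcription factors, with 62.6, 135, 86.2 and 94.9 TPM in libraries 1 to 4. Library 2 stood apart for Dab2 and libraries 3 and 4 were close. Lrp2 was the steadiest of the 10, at 12.5, 17.8, 14.2 and 13.5 TPM, a highest to lowest ratio of 1.41 beside the median of 1.40 over all genes tested. Cubn stood at 14.5, 14.4, 16.2 and 8.30 TPM, with 3 libraries together and library 4 lower. Amn stood at 10, 6.84, 12.3 and 5.99 TPM, from 191, 128, 179 and 115 counts, with libraries 1 and 3 above 2 and 4. In Cubn the gap between libraries 1 and 2 (57.8 and 56.7 scaled CPM) was within the counting error of 3.30% per library, which leaves out the spread between cultures.

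Cubn and Amn, the subunits of 1 receptor, were the only ones of the 10 whose libraries ran 3, 1, 2, 4 from high to low. This order was held by 4.55% of all genes tested. It is not firm, as libraries 1 and 2 were level for Cubn. For Amn libraries 2 and 4 were close, at 3.32 and 2.91 scaled CPM with a counting error of 11.6% per library. Cubn exceeded Amn by 0.61 ± 0.31 (log2, SD, n = 4), positive in every library. Relative to Dab2, Cubn was at -2.10, -3.21, -2.40 and -3.50 and Amn at -2.63, -4.28, -2.79 and -3.96 (pairs chosen after the values were seen). Receptor subunits were thus lower against the adaptor in libraries 2 and 4 than in 1 and 3. Between libraries 1 and 2, however, Cubn was level (57.8 and 56.7 scaled CPM) while Dab2 went from 122 to 260. How common such a split is among all genes was not counted. Lrp2 over Cubn was -0.21, 0.31, -0.19 and 0.70, so which of the 2 large receptors was higher depended on the library. Dab2 over Lrp2 was 2.31, 2.91, 2.59 and 2.80, so Lrp2 too was lower against the adaptor in libraries 2 and 4. Lrpap1, the chaperone that guards Lrp2 on its way to the surface, exceeded Lrp2 by 3.37 ± 0.07, the smallest SD of the 12 pairs plotted.

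**Figure D3:**
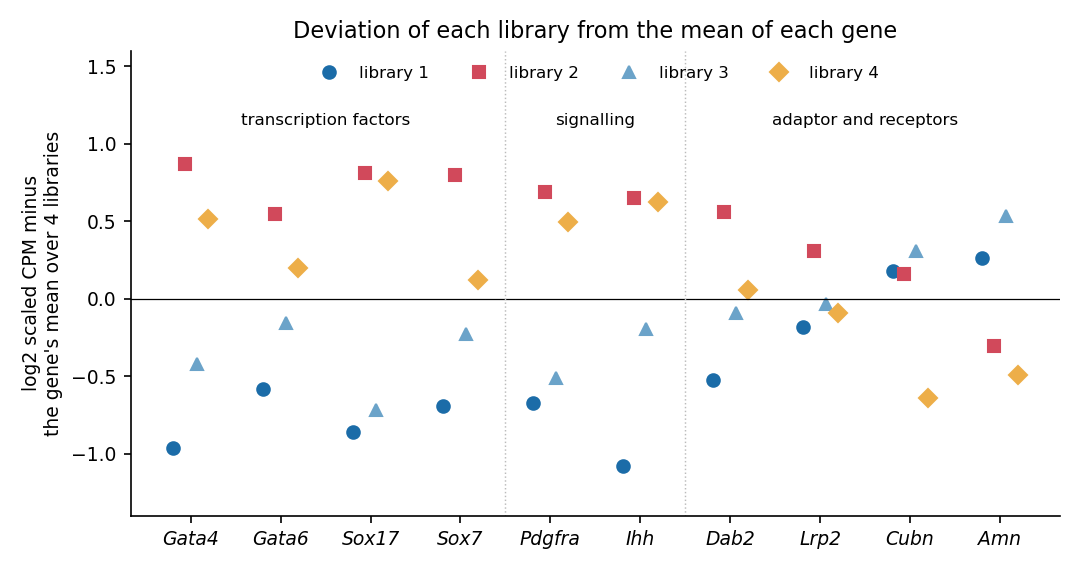
Log2 scaled CPM of each gene in each library minus its mean over the 4 libraries, 1 point per library. Libraries 2 and 4 lie above libraries 1 and 3 for the transcription factors, Pdgfra, Ihh and Dab2, and below for Amn; for Cubn library 4 is low and libraries 1 and 2 are level.

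All 23 genes of the uptake machinery were expressed, with a median highest to lowest ratio of 1.22. Of the 23, 15 were higher in libraries 2 and 4 (29.2% of all genes tested) and 3 in libraries 1 and 3 (29.5%). The clathrin heavy chain Cltc stood at 402 ± 66.1 TPM (SD, n = 4), and the lysosomal genes Lamp1 and Ctsl led at 746 ± 68.3 and 575 ± 128 TPM, while Myo6, the motor that moves Dab2-bound vesicles, and Itsn1 were lowest at 20.5 ± 3.96 and 17.8 ± 0.642. The widest spread of the 23 was that of Clcn5, an endosomal chloride and proton exchanger needed for receptor-mediated uptake in the proximal tubule. It stood at 34.4, 93.6, 43.4 and 68.0 TPM, a highest to lowest ratio of 2.69. Of 14 related receptors, 12 were expressed, led by Igf2r at 320, 686, 313 and 599 TPM and Tfrc at 235 ± 44.7 TPM, and Lrp1b and Stab2 were below 1 TPM. Of the 12 tested, 7 were higher in libraries 2 and 4 (29.2% of all genes tested), and 3 (Sorl1, Scarb1 and Folr1) were higher in 1 and 3 (29.5%). Folr1, the folate receptor, stood at 37.2, 25.9, 35.3 and 24.2 TPM.

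Ligands of the receptors were present in part. Of 13, 7 were expressed: Apoe led at 609 ± 21.8 TPM (SD, n = 4), and Tcn2, which carries cobalamin in blood, stood at 112 ± 23.5 TPM. Rbp4, a megalin ligand that carries retinol, stood at 23.5, 60.8, 30.7 and 66.0 TPM, and clusterin (Clu) at 99.4, 300, 122 and 194 TPM, both higher in libraries 2 and 4. Intrinsic factor (Cblif), the cobalamin carrier that cubilin binds in the gut, had 0, 2, 2 and 0 counts, and Shh is given above. In the 12 genes of cobalamin handling, 11 were expressed, led by Mmadhc at 125 ± 7.84 TPM.

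Across libraries, 7 of the 10 genes (Gata4, Gata6, Sox7, Sox17, Pdgfra, Dab2 and Ihh) had the order 2, 4, 3, 1 from high to low, which 12.1% of the 17398 genes tested had. All 10 passed the low-count filter of that set. Ihh counted to this order by a small margin, and without TMM factors library 4 passed library 2 for it, which left 6. Libraries 2 and 4 were both above 1 and 3 for these 7 genes (29.2% of all genes tested), and both below for Cubn, by less than counting error between libraries 1 and 2, and for Amn (29.5%). The highest library was at least 2-fold above the lowest for 8 of the 10 genes, against 18.5% of genes tested. That count was 5 without library 1 and 5 without library 2. The median SD of log2 scaled CPM was 0.56 over the 10 genes and 0.22 over all genes tested. Coefficients of variation ran from 15.7% (Lrp2) to 57.5% (Sox17), while counting error, taking 2 counts per fragment, gave 1.78% (Dab2) to 11.7% (Ihh).

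Setting 1 library against the rest, edgeR (quasi-likelihood test) was fitted over 17398 genes with Benjamini-Hochberg adjustment at 0.05. None of the 10 genes was called in any of the 4 comparisons (adjusted p from 0.626 to 1.00), and no gene of the whole table was (0% in libraries 1, 2, 3 and 4). The largest differences were those of library 1, where Ihh was lower by a log2 difference of -1.49 ± 0.47 (SE), Gata4 by -1.37 ± 0.47 and Sox17 by -1.30 ± 0.59 (each adjusted p = 0.723). In library 2, Sox7 was higher by 1.04 ± 0.31 and Gata4 by 1.02 ± 0.47 (each adjusted p = 0.626). In library 4, Cubn was lower by -0.86 ± 0.16 (adjusted p = 1.00). At an unadjusted threshold of 0.05, 4 of the 10 genes passed in library 1, all lower (background 5.32%), 4 in library 2, all higher (7.38%), 0 in library 3 (1.57%) and 1 in library 4, Cubn, lower (1.55%). DESeq2 called none of the 10 at an adjusted 0.05 (background 0.046%, 0.424%, 0.0172% and 0.0172% in libraries 1 to 4). The 4 comparisons share libraries, and the lone library is taken to vary like the others. Leaving out 1 of the other libraries changed the calls: with library 3 left out 7 of the 10 genes were called in library 1 (background 12.4%), and with library 4 left out 8 were called in library 2 (14.4%). With library 1 left out 4 were called in library 3 (7.35%), and with library 2 left out 6 were called in library 4 (7.8%). With no filter on low counts 5 were called in library 1 (0.836%) and 5 in library 2 (1.19%). Among fits with a library left out, only those with libraries 2 and 4, or 1 and 3, on the other side had calls. In each such fit the spread comes from the pair of libraries on the other side alone.

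Other genes of the same lineage were set beside the 10. Of 16 further primitive endoderm genes, all were expressed, and libraries 2 and 4 were above 1 and 3 for 15 of them, beside 29.2% of all genes tested. Foxa2 and Hnf4a, regulators of visceral endoderm, stood at 7.11, 21.9, 9.48 and 18.8 TPM and at 3.91, 7.36, 4.94 and 5.49 TPM. Klf5 was the exception, at 243, 227, 284 and 205 TPM. All 15 parietal endoderm genes were expressed and all 15 were higher in libraries 2 and 4, beside the same 29.2% of all genes tested. Their summed level was 3854, 11636, 4660 and 8989 TPM in libraries 1 to 4. Sparc and Col4a1 led at 2034 ± 939 and 1502 ± 906 TPM (SD, n = 4), Thbd and Stra6 were lowest at 23.6 ± 15.2 and 4.31 ± 1.5, and the laminin chain Lama1 stood at 170, 733, 212 and 475 TPM. Among 20 visceral endoderm products and regulators, 15 were expressed, and 11 of the 16 tested were higher in libraries 2 and 4 (29.2% of all genes tested). Afp ran at 2.36, 30.0, 4.64 and 8.89 TPM, and DESeq2 called it in library 2, as it did Srgn of the parietal list and Tnnt2 of the cardiac markers. Rhox5 and Amot led at 207 ± 45.3 and 45.6 ± 14.4 TPM, Rhox5 and Hhex were higher in libraries 1 and 3, and Cer1, a marker of anterior visceral endoderm, had 4, 4, 0 and 2 counts. Cubn and Amn are products of visceral endoderm as well, and like Apom, Trf and Rhox5 of this list they were not higher in both libraries 2 and 4, whereas Afp, Ttr, Rbp4 and Spink1 were.

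**Figure D4:**
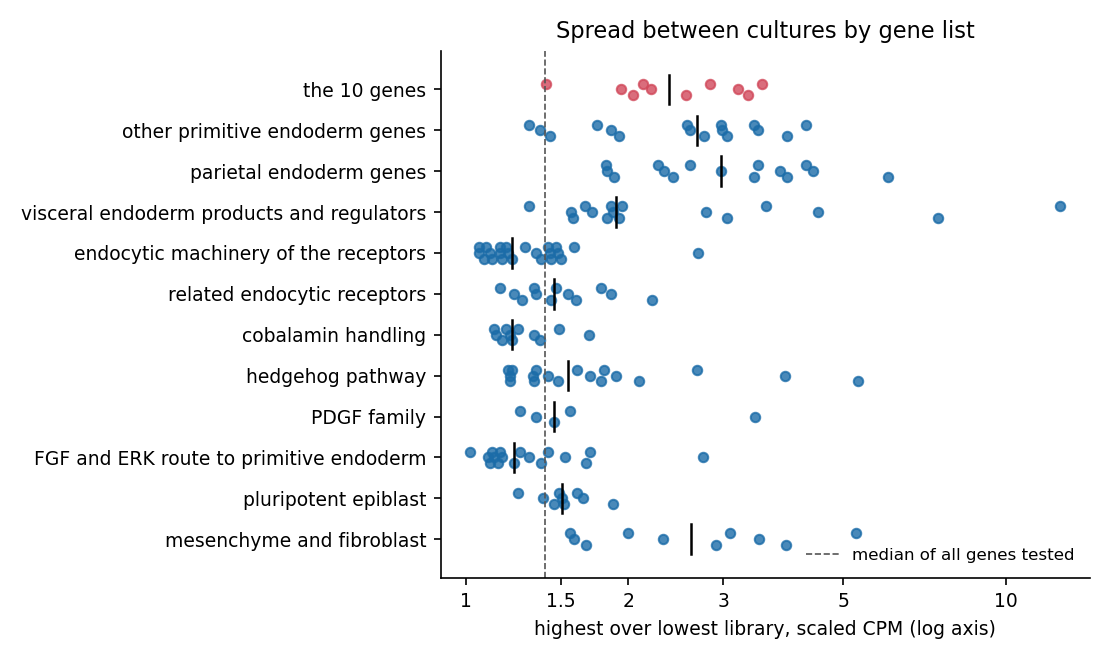
Highest over lowest library in scaled CPM (log axis) for each tested gene of 12 sets, 1 point per gene and a black bar at the median, with a dashed line at the median of all genes tested (1.40). The 10 genes have a median of 2.38, the parietal endoderm genes 2.97 and the uptake machinery 1.22.

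The FGF route that precedes primitive endoderm was expressed throughout, with 17 of 17 genes. Fgf4, the epiblast ligand, stood at 223 ± 39.6 TPM (SD, n = 4) and was higher in libraries 1 and 3. Of its receptors, Fgfr1 stood at 64.3 ± 7.16 and Fgfr2 at 9.35 ± 1.25 TPM. Etv5 led the list at 314 ± 21.5 TPM, and Fgfr4 and Fgfr3 were lowest at 8.79 ± 1.00 and 3.02 ± 1.18.

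Markers of other cells in which the 10 genes are used were read in the same libraries. Their part in the levels of the 10 genes was not tested. Mesenchyme and fibroblast markers were all expressed, 10 of 10, with summed levels of 1614, 3513, 1393 and 2471 TPM in libraries 1 to 4. Of these markers, 9 were higher in libraries 2 and 4 (29.2% of all genes tested) and 0 in libraries 1 and 3 (29.5%). Libraries 2 and 4 were also the higher ones for 7 of the 10 genes, Pdgfra among them. The median highest to lowest ratio of the mesenchyme and fibroblast markers was 2.62. Pluripotent epiblast markers ran the other way, with sums of 4053, 2740, 3862 and 3061 TPM, and 8 of the 9 were lower in libraries 2 and 4 (29.5% of all genes tested). Zfp42 and Cripto were the highest of them and Klf2 and Sox2 the lowest. Endothelial markers were expressed for 5 of 9 genes (sums of 82.0 to 94.5 TPM), with Pecam1 at 45.4 ± 10.5 TPM (SD, n = 4), Cdh5 at 16.6, 34.8, 14.9 and 35.8 TPM, and Emcn at 0, 0, 0 and 2 counts. Cardiac markers were expressed for 4 of 9, led by Hand2 at 64.0 ± 19.1 TPM, and Nkx2-5 had 2 to 16 counts. Cardiac sums were 76.9, 99.3, 53.4 and 94.6 TPM in libraries 1 to 4. Of the 8 cardiac markers tested, 5 were higher in libraries 2 and 4 (29.2% of all genes tested) and 2 in libraries 1 and 3 (29.5%). Definitive endoderm and streak markers were expressed for 5 of 10, with Kit highest and Cer1 lowest. Sums of this list were 76.4, 111, 76.1 and 104 TPM in libraries 1 to 4. Of the 6 tested, 2 (Foxa2 and Kit) were higher in libraries 2 and 4 (29.2%) and 2 (Eomes and Hhex) in libraries 1 and 3 (29.5%). Kidney proximal tubule markers were expressed for 1 of 9, the water channel Aqp1 at 3.8 ± 1.36 TPM, with sums of 4.11 to 7.52 TPM. The phosphate transporter Slc34a1, which defines the tubule, and Umod had 0 counts in every library. Trophoblast markers were expressed for 7 of 8 (126 to 148 TPM), macrophage markers for 3 of 7 (69.7 to 94.7 TPM, with Aif1 at 0 or 1 count) and oligodendrocyte precursor markers for 0 of 5.

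To show which genes had the most similar values, each gene's 4 log2 scaled CPM values were centred and compared with those of protein-coding genes at a mean of 10 CPM or more. With 4 libraries many genes lie close by, so this describes likeness only. Nearest to Gata4 were Pth1r, a receptor of parietal endoderm (root mean square distance 0.0414 log2 units), Kif21a (0.0448) and Bace2 (0.0488). Among the nearest to Pdgfra were Chst15 and Creb3l1 (0.0488 and 0.0507). Nearest to Lrp2 were Ppp3r1, Ktn1 and Acadsb (0.0131, 0.0156 and 0.0239), and to Ihh Flrt3, Cd24a and Ednra (0.0925, 0.138 and 0.142). Among the 10 genes themselves, Gata4 was closest to Pdgfra and Ihh (0.176 each) and farthest from Amn (1.10), and Cubn was closest to Amn (0.268) and farthest from Sox17 (1.07).

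Overlapping annotation touches few of these values. The libraries keep no strand, and 16.8% of the exon bases of Sox17 overlap Gm37587 on the opposite strand, a gene with 0, 4, 0 and 6 counts of its own. For Pdgfra the shared part was 6.50%, for Dab2 2.87%, for Cubn 2.46% and for Gata6 1.43%, and Gata4, Sox7, Lrp2, Amn and Ihh shared none.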

How the data were processed

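Polyadenylated RNA of 4 cultures was sequenced from both ends without strand information, per the labels' protocols. The authors deposited raw counts per gene, whole numbers with no normalization. The submitters' processing notes list STAR, featureCounts and GRCm39 (mm39). Their versions, the annotation and how pairs were counted were not given in the sources used here. Even numbers made up 60.0% to 62.6% of counts between 1 and 8, so a count may be 1 end of a fragment. The 10 genes, lists and pairs were chosen with earlier results of these data known.

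Rows were matched to GENCODE M21 (GRCm38), 48151 of 48796 by symbol, for gene types and lengths (all exons of a gene joined). These lengths turned the deposited counts into TPM, and ratios were taken with a pseudocount of 0.1 TPM. Scaled CPM used TMM factors. edgeR (4.0.16), after filterByExpr, set 1 library against the rest, and DESeq2 (1.42.0) was an alternative. The edgeR standard error is that implied by the F statistic. The fits were tested on simulated data first. Alternatives were another scaling, filter, threshold, pseudocount and gene length, halved counts, and each library left out. Genes named are all 10, the highest and lowest of each list, genes of the pairs and the 3 nearest profiles of 4 genes. Other list genes were named after their values were seen. Some genes that this rule names are not reported here. R 4.3.3, Python 3.11.15, numpy 2.4.6, pandas 2.3.3 and matplotlib 3.10.9 were used. Promoter sequences are from RefSeq (GRCm38.p6).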

Additional observations from a re-analysis of the deposited data

How the results depend on the processing

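All 10 genes stayed at 1 unit or more with CPM, with the longest transcript as gene length and without any 1 library, and 9 were at 5 TPM or more. Mean TPM moved by less than 1 SD under 59 of 60 alternatives, the exception being Lrp2, at 11.8 TPM with the longest transcript. Of 175 alternative mean ratios none changed sign where the 4 libraries shared one, although with the longest transcript Gata4 over Gata6 was -0.32 and -0.22 in libraries 1 and 3, and 9 moved by more than 1 SD, 7 of them with the longest transcript. At a ratio of 3 or more the count of variable genes was 3, and without 1 library it was 5 to 7. For libraries 1 to 4, genes called over the whole table were 0 with edgeR, also with RLE scaling or halved counts, 8, 68, 3 and 3 with DESeq2, and 328, 469, 1 and 6 with no filter on low counts, which called 5 of the 10 genes in libraries 1 and 2. Without 1 library they were 0 to 2206, 0 to 2552, 0 to 1303 and 0 to 1386. No paired analysis was possible because the series has 1 group. With 1 group of 4, exact tests on ratios cannot pass 0.05, and levels of Amn and Ihh rest on 78 to 259 counts.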
